A study of Mus musculus with 2 samples.

Results

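Mesothelial cells of the mouse uterus were examined in 2 droplet libraries, one from animals given doxorubicin together with anti-Müllerian hormone and one from animals given doxorubicin alone. The cells were selected on their own counts: a cell was taken as mesothelial where at least 3 of the 5 genes Msln, Upk3b, Lrrn4, Upk1b and Wt1 had a UMI (a unique molecular identifier, 1 counted transcript). They also had to hold at most 3 UMIs of Krt5 and at most 1 each of Epcam, Pecam1 and Ptprc, which mark squamous epithelium, columnar epithelium, endothelium and leukocytes. The rule found 190 cells of 14848 that passed the cell filter, 108 of 7065 in DOX plus AMH and 82 of 7783 in DOX. A barcode passed with 1000 or more UMIs, 500 or more genes and a mitochondrial share of no more than 15%.

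The mesothelium is the single layer of flat cells that covers the outer surface of the uterus as the serosa, and lines the peritoneal cavity. It develops from mesoderm, and its cells carry both keratins and mesenchymal proteins. Mesothelial cells secrete lubricants that let organs slide, keep the surface free of fibrin through plasminogen activators, and release complement, chemokines and prostaglandins when the peritoneum is injured.

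The DOX plus AMH animals received doxorubicin at 3 mg/kg and anti-Müllerian hormone (AMH) at 0.75 mg/kg, and the DOX animals received doxorubicin at 3 mg/kg alone. Doxorubicin is an anthracycline that damages DNA by way of topoisomerase II, and AMH, a relative of TGF-beta, has Amhr2 as its own receptor. The labels give a time of 4 h for both groups, and the uteri of 5 mice were pooled into 1 suspension and 1 library per group. Strain, genotype and age are not in these labels. All animals of both groups had doxorubicin, and no untreated library was analysed here. The series text gives postnatal day 25 and 2 weekly doses for animals used in bulk sequencing, and it does not say whether the animals of these libraries had the same schedule. With 1 library per group, no difference could be tested: treatment, pool of animals, dissociation and library cannot be told apart. Intervals are at 95% and cover counting error alone, not the spread between cells or pools. PCR duplicates were collapsed by UMI, so each count is 1 captured molecule.

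The DOX plus AMH library held 97887259 UMIs over 8083 barcodes and the DOX library 129530270 UMIs over 9258 barcodes. The mesothelial cells held 2375530 UMIs in DOX plus AMH and 1857376 in DOX, with medians of 16989.5 and 17395.5 UMIs per cell. Their median numbers of genes were 4438.5 and 4629.5, and their median mitochondrial shares were 4.37% and 4.91%. Mesothelial cells of the 2 libraries were thus close in depth, while all passing barcodes were shallower in DOX plus AMH (median 10221) than in DOX (13975). The libraries shared 13 passing barcode sequences, of which 0 were mesothelial.

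The marker genes chose the cells, so their values are a description. Upk3b, a uroplakin of the mesothelial surface, had a UMI in 108 of 108 cells in DOX plus AMH and 82 of 82 in DOX, at 660.5 and 883 CPM (counts per 1000000 UMIs of the mesothelial cells of a library). Msln, the surface glycoprotein mesothelin, stood at 231 CPM in DOX plus AMH and 306 CPM in DOX. Lrrn4, a leucine-rich repeat membrane protein, stood at 281 and 230.4 CPM, and Upk1b, another uroplakin, at 224 and 249 CPM. All 4 were scarce in stroma, where each had at most 1.76 CPM in either library. Wt1, a transcription factor of coelomic epithelium, was less specific, with 375 and 336 CPM in mesothelial cells and 120.4 and 129 CPM in stroma. Most cells held all 5 markers, 76 of 108 in DOX plus AMH and 57 of 82 in DOX.

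Cells just inside the rule, few in number, differed from those just outside it. The 10 cells in DOX plus AMH and 8 in DOX with 3 markers had Krt19, a keratin of simple epithelia, at 265 and 142 CPM. Below the threshold, 77 and 94 otherwise qualifying cells with 2 markers had Krt19 at 5.85 and 9.39 CPM. Pdgfra, the receptor that marks uterine stroma, was at 110.4 and 59.0 CPM in the cells with 3 markers, at 16.0 and 22.1 CPM in those with all 5, and at 297 and 245 CPM in those with 2. Of the cells with 3 markers, 2 of 10 and 1 of 8 held a UMI of Pdgfra, and 7 and 5 held one of Krt19. Of those with 2 markers, 66 of 77 and 76 of 94 held Pdgfra, and 5 and 9 held Krt19. The cells with 2 markers were thus closer to stroma in both genes. The limits on other cell types left out 31 cells in DOX plus AMH and 36 in DOX that held 3 or more markers, 22 and 27 of them for Pecam1 and 10 and 18 for Epcam. Those with Pecam1 could enter the endothelial comparison class, which held Upk3b at 56.0 and 42.2 CPM, so its values for mesothelial genes are not those of pure endothelium.

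Genes that the rule did not use also bore out the mesothelial label. Gpm6a, Nkain4, Muc16 and Bnc1, all known from mesothelium, were at 322, 449, 173 and 56.4 CPM in DOX plus AMH and at 402, 310.1, 246 and 94.2 CPM in DOX. Their highest level in stroma of either library was 6.69 CPM. Calb2, the calretinin gene used to mark human mesothelium, was at 0 UMIs in both libraries. Of the uroplakins, Upk2 and Upk3a, which build bladder urothelium with their partners, were at 0 in both, and Upk1a had 2 and 1 UMIs, so the genes detected well were Upk3b and Upk1b.

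**Figure D1:**
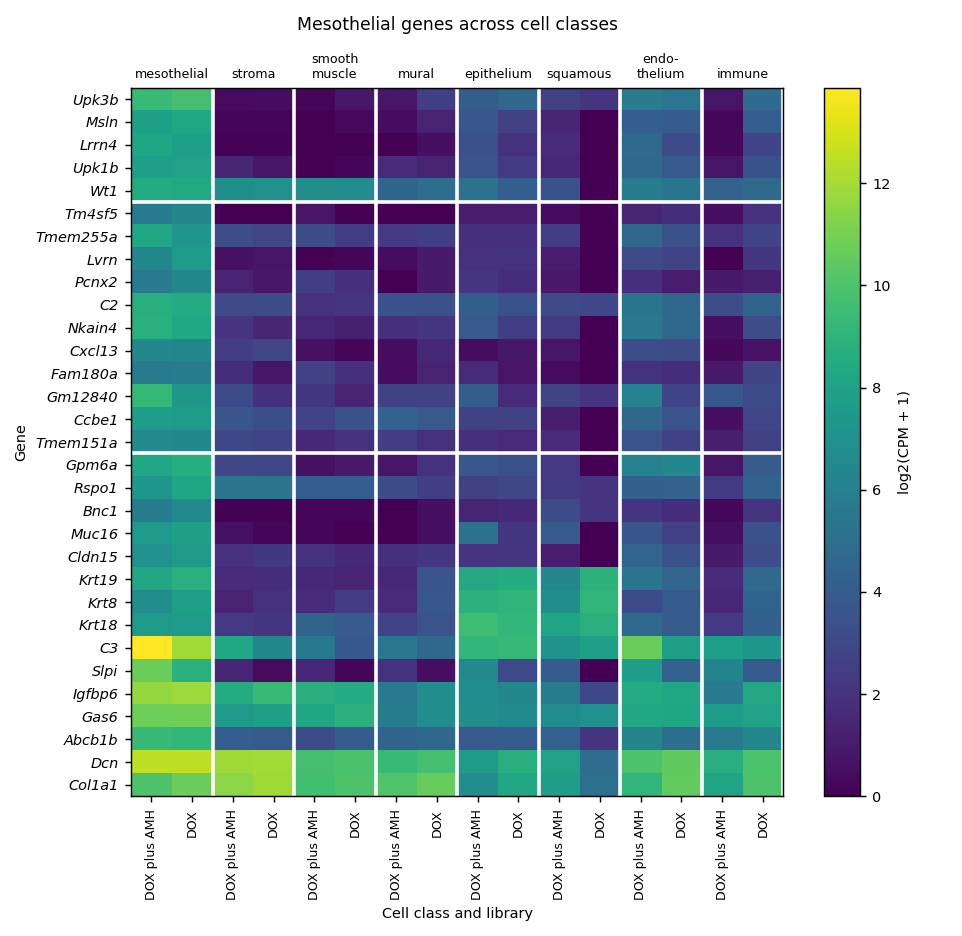
Levels of mesothelial genes on a log2(CPM + 1) colour scale, with genes in rows and 8 cell classes in columns, each as DOX plus AMH and DOX. The rows above the first white line are the 5 genes of the rule, those between the lines are the other enriched genes, and Upk3b at 660 and 883 CPM in mesothelial cells stands against less than 1 CPM in stroma.

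Among genes of at least 50 CPM in mesothelial cells of both libraries, 140 of 3047 (4.59%) were at least 2-fold above the highest of 7 comparison classes in both. The comparison classes were stroma, smooth muscle, mural cells, epithelium, squamous epithelium, endothelium and immune cells, each set by UMI limits on a few marker genes. The most enriched gene was Tm4sf5, a tetraspanin-like membrane protein, at 53 CPM in DOX plus AMH and 79.1 CPM in DOX, 30.6 and 25.4 times the next class. Lvrn, an aminopeptidase named laeverin, had 87.1 and 201 CPM, 11.7 and 32.1 times the next class. C2, a protease of the classical complement pathway, had 411 and 373 CPM, 10.0 and 15.4 times the next class. Cxcl13, the chemokine that attracts B cells, had 84.2 and 80.8 CPM in mesothelial cells and 4.74 and 6.37 CPM in stroma. Ccbe1, a secreted protein needed for lymphatic growth, had 207 and 199.7 CPM. The remaining genes of the 15 most enriched were the rule's own Msln, Upk3b, Lrrn4 and Upk1b with Nkain4, Tmem255a, Pcnx2, Fam180a, Gm12840 and Tmem151a.

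Mesothelial cells combined epithelial and mesenchymal transcripts. Krt19 was at 315 and 451 CPM, close to the 326 and 377 CPM of uterine epithelium in DOX plus AMH and DOX, and Krt7 at 128 and 146 CPM. After thinning each cell to 2000 UMIs, Krt19 had a UMI in 38.9% of mesothelial cells in DOX plus AMH and 41.5% in DOX, and unthinned in 85.2% and 78.0%. Immune cells, which should lack it, gave 0.645% and 1.67% thinned, and 2.83% and 5.50% unthinned at median depths of 10429 and 9492 UMIs. Cdh1, the epithelial cadherin, had only 16 UMIs in DOX plus AMH and 13 in DOX, and Cdh2, the N-cadherin of many mesothelia, 21 and 16, both under the free RNA limit given below. Cdh11, a cadherin of mesenchymal cells, was at 489 and 552 CPM, a level close to that of stroma (391 and 454 CPM). Dcn, the proteoglycan decorin, reached 5951 and 5983 CPM, above the 3776 and 3993 CPM of stroma. Col1a1, a fibrillar collagen, was at 1020.4 and 1636 CPM, below the 2759.7 and 3771 CPM of stroma.

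The cells were rich in secreted regulators. Igfbp6, which binds insulin-like growth factor 2, was at 3259 and 3634 CPM, and Gas6, the ligand of the TAM receptor kinases, at 1781 and 1833 CPM. Both were several-fold above stroma, where Igfbp6 was at 382 and 654 CPM and Gas6 at 176 and 237 CPM. Fgf1, a fibroblast growth factor, was at 371 and 329 CPM and at most 3.22 CPM in stroma. Abcb1b, one of the mouse P-glycoprotein pumps that export doxorubicin, was at 618 and 556 CPM, 8.34 and 6.73 times the highest comparison class. Its paralogue Abcb1a was under the free RNA limit, at 36.6 and 21.0 CPM. The log2 ratio of Abcb1b, DOX plus AMH over DOX, was 0.15 (0.04 to 0.27).

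Mesothelial cells made up 1.53% (1.26 to 1.84) of the passing cells in DOX plus AMH and 1.05% (0.839 to 1.31) in DOX, a difference of 0.475 percentage points. Combining both exact binomial intervals in quadrature gave 0.103 to 0.856 points for the difference, for counting error only. The exact binomial intervals of the shares overlapped. The difference stayed above 0 under the 9 other settings tried, from 0.357 percentage points with 2 markers sufficing to 0.663 points after thinning every barcode to 5000 UMIs. A share also moves with the yield of every other cell type in the suspension: squamous cells were 7.4% of the DOX plus AMH library and 0.103% of the DOX library.

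The levels of mesothelial genes differed between the libraries in both directions. Of 6276 genes with at least 100 UMIs over both libraries and 20 CPM in the higher, 196 (3.12%) had 2-fold or more of the DOX level in DOX plus AMH, and 188 (3%) were 2-fold or more below it. Lower genes were 49.0% of this total, and 38.1% when the libraries were scaled by TMM (trimmed mean of M-values), which gave 229 higher and 141 lower. Among 11568 genes with at least 20 UMIs, 17% passed 1.3-fold upwards in DOX plus AMH and 28.8% downwards, with a median log2 ratio of -0.12. These shares are the background against which the gene lists below are set. They were not taken in stroma, so the stromal list medians stand without such a background. To guard against free RNA, a gene counted as the cells' own where its CPM was at least 0.2 of that of the highest comparison class, in the library where it was higher. This held for 187 of the 196 higher and 161 of the 188 lower genes. The counts and medians of the gene lists below were made without this limit and include genes under it.

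**Figure D2:**
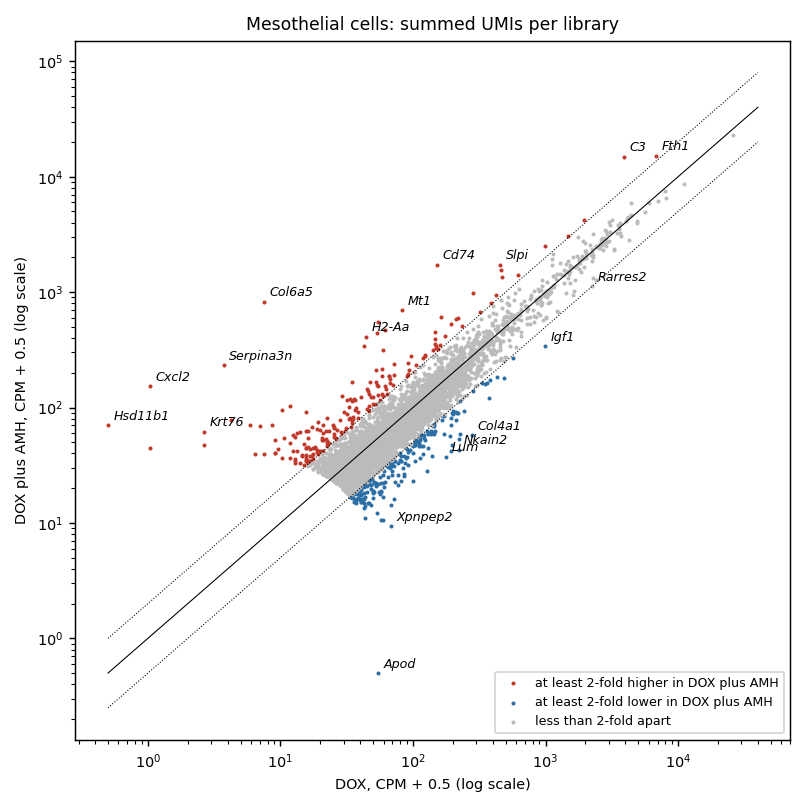
Each point is 1 of 6276 genes in mesothelial cells, with CPM + 0.5 in DOX plus AMH on the vertical and in DOX on the horizontal log axis, the solid line marking equal levels and the dotted lines 2-fold. Col6a5 at 825 and 7.0 CPM lies far above the line and C3 at 14947 and 3927 CPM is among the most abundant genes off it, while Apod at 0 and 53.8 CPM lies lowest.

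The 12 genes highest in DOX plus AMH were Cxcl2, Col6a5, Tdo2, Serpina3n, Hsd11b1, Krt76, Serpina3g, Ptges, Cd74, Hlf, H2-Eb1 and Egln3. Because they were picked for size, their ratios describe these libraries. A mesothelial cell of DOX plus AMH held UMIs of a median of 6 of the 12 genes (range 1 to 12), and one of DOX of 2 (range 0 to 4). At least 4 of the 12 were present in 87 of 108 cells in DOX plus AMH and 7 of 82 in DOX. After thinning to 5000 UMIs the medians were 4 and 1, and 64 of 105 and 1 of 80 cells held at least 4. The direction of these counts follows from how the 12 genes were picked, so they describe only how the UMIs were spread over cells. Thinned to 5000 UMIs, Col6a5 had a UMI in 62.9% of mesothelial cells in DOX plus AMH and 2.50% in DOX, Serpina3n in 46.7% and 2.50%, and Krt76 in 24.8% and 2.50%. Immune cells, with median depths of 10429 and 9492 UMIs before thinning, gave 1.16% and 0.796% for Col6a5, 0.772% and 0.531% for Serpina3n, and 0 of 259 and 0 of 377 cells for Krt76.

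Col6a5, a chain of the microfibrillar collagen VI, had 1959 UMIs in DOX plus AMH and 13 in DOX, or 825 (789 to 862) and 7.0 (3.73 to 12) CPM. It was detected in 76 of 108 cells in DOX plus AMH and 6 of 82 in DOX, and its log2 ratio was 6.88 (6.10 to 7.79). Stroma had it at 25.7 and 4.25 CPM, a log2 ratio of 2.60 (2.40 to 2.80). The 6 collagen VI genes differed among themselves. Col6a1 and Col6a2, the chains of the common heterotrimer, were at 803 and 447 CPM in DOX plus AMH and 939 and 460.3 CPM in DOX. Col6a3, the chain that completes that heterotrimer, was lower at 41.3 CPM in DOX plus AMH and 193 CPM in DOX (log2 ratio -2.23, -2.57 to -1.90). Col6a6, a close relative of Col6a5, had 87.1 and 31.2 CPM (log2 ratio 1.48, 1.05 to 1.93). With 2 markers sufficing for a member, its log2 ratio was 0.15, and with every cell weighted the same 0.95. Col6a4 had 16.0 and 49.5 CPM, under the free RNA limit beside 577 and 811 CPM in stroma. Reads of Col6a4, Col6a5 and Col6a6 may be divided among these similar genes by the authors' counting.

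Serpina3n and Serpina3g, serine protease inhibitors that in mouse are counterparts of human antichymotrypsin, were both in the highest 12. Serpina3n had 552 and 6 UMIs and was present in 74 of 108 cells in DOX plus AMH and 5 of 82 in DOX (log2 ratio 6.17, 5.04 to 7.62). Serpina3g had 112 and 4 UMIs in 44 and 4 cells (log2 ratio 4.45, 3.06 to 6.35). These genes lie in a cluster of similar copies, so the division of reads between them is uncertain. Krt76, a keratin known from palate and other stratified epithelia, had 145 UMIs in 49 cells of DOX plus AMH and 4 UMIs in 2 cells of DOX, and its highest level elsewhere was 4.86 CPM, in the endothelial class of DOX plus AMH. Egln3, an oxygen-sensing prolyl hydroxylase that is itself a hypoxia target, had 94.3 and 9.69 CPM (log2 ratio 3.28, 2.59 to 4.06). Tdo2, which degrades tryptophan, had 104 UMIs in 19 cells and 1 UMI in 1 cell (log2 ratio 6.35, 3.84 to 11.66). Hlf, a clock output factor, stands apart, because 1 cell held 138 of its 164 UMIs in DOX plus AMH. Without that cell its log2 ratio was 0.77 (-0.27 to 1.89).

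**Figure D3:**
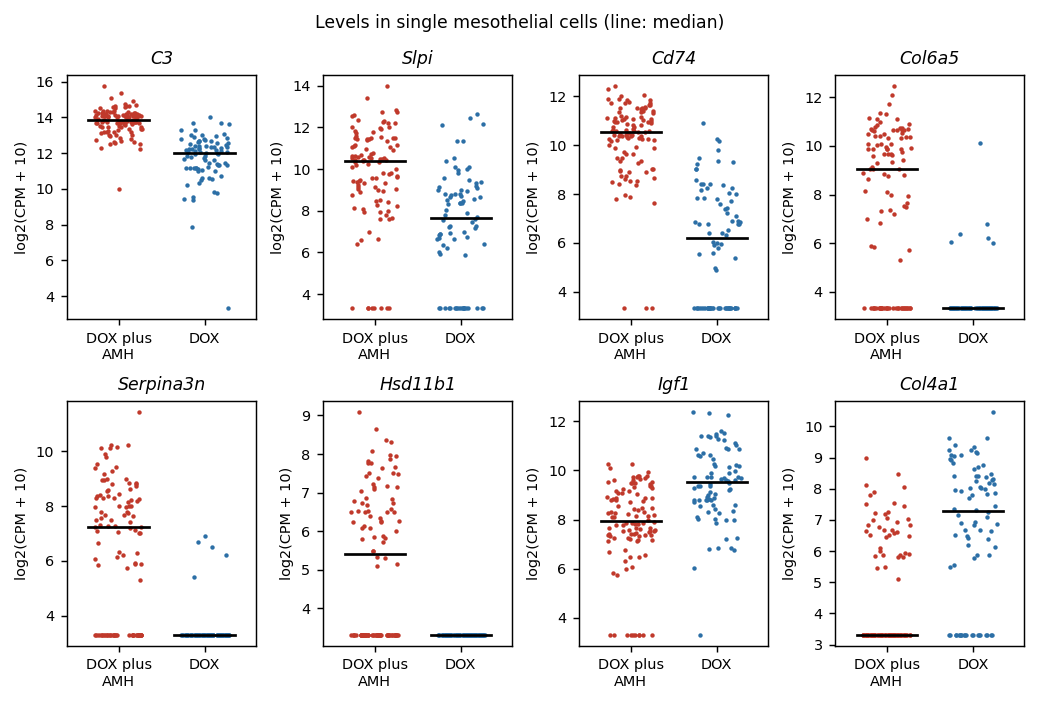
Each point is a mesothelial cell on a log2(CPM + 10) axis, 108 cells of DOX plus AMH on the left of each panel and 82 of DOX on the right, with a line at the median. C3 and Cd74 are shifted upwards across the DOX plus AMH cells, Col6a5, Serpina3n and Hsd11b1 lie at 0 UMIs in nearly all DOX cells, and Igf1 and Col4a1 are lower in DOX plus AMH.

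Complement and innate defence genes were higher as a group. Of 16 measured list members, 11 were at least 1.3-fold higher in DOX plus AMH and 1 was lower, against 17% and 28.8% of all genes, and the list median log2 ratio was 1.00. C3, the central complement component, stood at 14947 (14792 to 15103) CPM in DOX plus AMH and 3927 (3837 to 4018) CPM in DOX (log2 ratio 1.93, 1.89 to 1.96). The median cell had 14793 CPM in DOX plus AMH and 4158 CPM in DOX, with quartiles of 11104 and 18665 against 2297 and 6023. The interquartile ranges of the cells did not overlap, although the full ranges did. Cfb, the protease that pairs with C3 in the alternative pathway, had 987 and 283 CPM (log2 ratio 1.80, 1.67 to 1.94). The classical pathway proteases C1ra and C1s1 had log2 ratios of 1.14 (0.98 to 1.3) and 0.88 (0.77 to 1.00). Serping1, the C1 inhibitor, had a log2 ratio of 0.62 (0.54 to 0.70). Cd59a, which blocks the terminal complex, was the lower member, with a log2 ratio of -0.64. In stroma the list median was 0.27, and C3 itself was at 301 and 80.7 CPM (log2 ratio 1.90, 1.85 to 1.95).

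Transcripts of other secreted defence proteins were higher too. Slpi, an inhibitor of neutrophil elastase, was at 1732 CPM in DOX plus AMH and 454 CPM in DOX (log2 ratio 1.93, 1.82 to 2.04), in 100 of 108 and 63 of 82 cells. Saa3, an acute phase apolipoprotein, was uneven, with UMIs in 55 and 16 cells and 87.1% of the DOX UMIs in 5 cells (log2 ratio 1.62, 1.43 to 1.82). Its log2 ratio was 0.74 with every cell weighted the same. Lcn2, the iron-scavenging lipocalin, had 92 UMIs in 42 cells of DOX plus AMH and 0 UMIs in DOX. Against a floor of 3 counts per library, Lcn2 was at least 24.0-fold higher, and epithelium held it at 113 and 332 CPM. Prg4, the surface lubricant lubricin, had 61 UMIs in 28 cells and 0 UMIs, at least 15.9-fold higher on the same floor. Muc16, the mucin of the mesothelial surface, was not higher, at 173 and 246 CPM (log2 ratio -0.50, -0.70 to -0.31), nor was the hyaluronan synthase Has1, at 45.0 and 44.1 CPM.

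MHC class II genes, which present peptides to helper T cells and are mostly products of professional antigen-presenting cells, had a list median of 1.55 over 9 measured genes, in a list added after its values were seen. Of the 9, 7 were at least 1.3-fold higher in DOX plus AMH and 1, the cathepsin gene Ctss, lower. The higher genes include H2-Aa, H2-DMa and H2-DMb1, which were under the free RNA limit. The shares over all genes were 17% and 28.8%. Cd74, the invariant chain that escorts class II molecules, had 4094 UMIs in DOX plus AMH and 282 in DOX, or 1723 (1671 to 1777) and 152 (135 to 171) CPM. It was present in 105 of 108 and 51 of 82 cells, and its log2 ratio was 3.5 (3.33 to 3.68). The class II chains themselves, H2-Aa, H2-Ab1 and H2-Eb1, had 410.4, 446 and 549 CPM in DOX plus AMH and 43.6, 53.3 and 54.4 CPM in DOX. Their log2 ratios were 3.23 (2.91 to 3.58), 3.06 (2.77 to 3.38) and 3.34 (3.04 to 3.64). H2-DMa and H2-DMb1, which load peptide, had log2 ratios of 1.55 (0.94 to 2.21) and 1.09 (0.53 to 1.68), and were under the free RNA limit. Ciita, the coactivator that class II promoters need, was near the limit of detection, with 5 and 2 UMIs (log2 ratio 0.97, -1.64 to 4.36). Thinned to 5000 UMIs, Cd74 had a UMI in 92.4% and 37.5% of mesothelial cells and in 5.37% and 3.39% of stromal cells, whose median depths were 10713 and 15451 UMIs before thinning.

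The class II promoters share short elements at conserved spacing, among them the Y box, the binding letters of the factor NF-Y. The 250 bases before the annotated start are shown for H2-Aa, on chr17:34287824-34288073 (minus strand), and H2-Eb1, on chr17:34305617-34305866 (plus strand), to show letters that class II promoters share. Both genes were higher in DOX plus AMH and had an entry in the promoter table used. H2-Ab1, also higher, was not matched there. The sequences are RefSeq's on GRCm38.p6, the assembly behind mm10, read 5′ to 3′ along the gene, with the letters CTGATTGG in capitals.
H2-Aa: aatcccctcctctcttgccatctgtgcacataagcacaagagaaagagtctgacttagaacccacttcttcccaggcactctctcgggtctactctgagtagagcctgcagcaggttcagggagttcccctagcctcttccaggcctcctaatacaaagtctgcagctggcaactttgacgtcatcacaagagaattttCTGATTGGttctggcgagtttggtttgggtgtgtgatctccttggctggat
H2-Eb1: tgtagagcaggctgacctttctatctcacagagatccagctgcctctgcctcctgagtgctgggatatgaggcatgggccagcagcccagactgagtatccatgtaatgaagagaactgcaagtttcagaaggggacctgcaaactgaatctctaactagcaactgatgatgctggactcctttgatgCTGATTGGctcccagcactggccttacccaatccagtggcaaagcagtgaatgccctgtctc
The match began 51 bases before the start in H2-Aa and 62 bases before it in H2-Eb1. Searched on both strands, these letters occurred in 1258 of 32851 promoter windows of the same length (3.83%). A match describes the letters alone.

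Macrophage markers were counted beside the class II transcripts, whose source was not tested. The 8 macrophage and monocyte markers summed to 28.2 CPM in mesothelial cells of DOX plus AMH and 131 CPM in those of DOX. They include Ptprc, which the rule limits to at most 1 UMI per cell. A UMI of any was held by 46 and 45 cells, and Adgre1 was at 0 in DOX plus AMH. The median cell had 0 and 25.6 CPM of the set, and the highest cell 362 and 1289 CPM. Ctss, which is abundant in antigen-presenting cells, had 4 UMIs in 2 cells and 19 UMIs in 2 cells, and with members holding stromal or muscle UMIs left out its log2 ratio was -0.20. Immune cells of the same libraries had Cd74 at 6480.1 and 5663 CPM, and H2-Aa at 2734 and 2531 CPM. The H2-Aa level of mesothelial cells was 0.15 of that and so under the free RNA limit. Stroma of the same suspensions had H2-Aa at 9.09 and 4.49 CPM, and the part of free RNA was not tested.

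Class I antigen presentation was higher as well, with 9 of 14 genes higher by 1.3-fold or more, 1 lower and a median log2 ratio of 0.62. The shares over all genes were 17% and 28.8%. B2m, the light chain of class I, had 3043 CPM in DOX plus AMH and 1480.0 CPM in DOX (log2 ratio 1.04, 0.98 to 1.10). H2-K1 and H2-D1, the classical heavy chains, had log2 ratios of 0.78 (0.72 to 0.84) and 0.90 (0.82 to 0.97), and Psmb8, a subunit of the immunoproteasome, 0.81 (0.60 to 1.01). In stroma the list median was -0.13, with B2m at 242 and 265 CPM.

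Inflammatory mediators were higher in part. Among cytokines and NF-kB genes, 12 of 24 were at least 1.3-fold higher and 3 lower, beside 17% and 28.8% of all genes. The list median was 0.35. Cxcl2, a neutrophil chemokine, had 363 UMIs in 23 cells of DOX plus AMH and 1 UMI in 1 cell of DOX, a log2 ratio of 8.15 (5.66 to 13.46). Of its UMIs, 64.2% came from 5 cells. Cxcl1, its relative, had UMIs in 35 and 18 cells (log2 ratio 1.69, 1.39 to 2.01), Ccl2, which attracts monocytes, in 60 and 38 cells (log2 ratio 1.44, 1.27 to 1.61), and the adhesion molecule Vcam1 in 54 and 27 cells (log2 ratio 1.41, 1.11 to 1.71). Cxcl10, a chemokine known as an interferon target, had 611 and 1015 CPM (log2 ratio -0.73, -0.83 to -0.63), and Ccl5, a chemokine also made by lymphocytes, was under the free RNA limit with 6 UMIs in 4 cells and 40 UMIs in 5 cells. Of the Ccl5 UMIs in DOX, 65% were in 1 cell, and the lymphocyte markers reached 1422 CPM in a cell of DOX. Ccl2 in stroma was lower in DOX plus AMH, at 11.5 CPM against 36.3 CPM in DOX.

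Among the prostaglandin genes named here, those for synthesis and a receptor were higher in DOX plus AMH, and the inactivating gene was lower. Ptgs2, the inducible cyclooxygenase, had 126 CPM in DOX plus AMH and 28.5 CPM in DOX (log2 ratio 2.15, 1.72 to 2.60), in 43 and 21 cells. Ptges, the terminal synthase for prostaglandin E2, had 183 UMIs in 52 cells and 7 UMIs in 5 cells (log2 ratio 4.35, 3.28 to 5.69). Ptgis, which makes prostacyclin, was present in nearly all cells, 106 of 108 and 77 of 82, at 583 and 327 CPM (log2 ratio 0.83, 0.70 to 0.97). Ptger3, a receptor for prostaglandin E2, had 310.2 and 169 CPM (log2 ratio 0.88, 0.69 to 1.08). Hpgd, which inactivates prostaglandins, was lower, at 595 CPM in DOX plus AMH and 1002 CPM in DOX (log2 ratio -0.75, -0.85 to -0.65). Added after its values were seen, the list had 7 of 10 genes at least 1.3-fold higher and 1 lower. The shares over all genes were 17% and 28.8%.

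Genes of glucocorticoid action were split. Hsd11b1, the enzyme that regenerates active glucocorticoid inside cells, had 166 UMIs in 58 of 108 cells of DOX plus AMH and 0 UMIs in 82 cells of DOX, at least 43.3-fold higher against the floor of 3 counts. In stroma Hsd11b1 was at 8.04 and 2.03 CPM. Hsd11b2, the enzyme of the opposite reaction, had 5 and 26 UMIs, under the free RNA limit beside 44.7 and 137 CPM in stroma. Mt1 and Mt2, the zinc-binding metallothioneins that glucocorticoids and metals induce, were at 697 and 343 CPM in DOX plus AMH and 82.4 and 42.0 CPM in DOX, with log2 ratios of 3.08 (2.84 to 3.33) and 3.03 (2.69 to 3.38). Sgk1, a kinase gene named for serum and glucocorticoid induction, had 93 and 11 UMIs (log2 ratio 2.72, 1.82 to 3.78), and Errfi1, an inhibitor of EGF receptor signalling, had 276 and 58 (log2 ratio 1.90, 1.48 to 2.33). The most used reporters of the receptor were nearer to equal: Fkbp5, Tsc22d3 and Per1 had log2 ratios of 0.28 (-0.26 to 0.83), 0.23 (-0.32 to 0.79) and 0.23 (-0.47 to 0.95), each interval spanning 0. Nr3c1, the glucocorticoid receptor, was lower at 103 and 183 CPM (log2 ratio -0.83, -1.08 to -0.59). Of 18 list members 9 were at least 1.3-fold higher and 2 lower, beside 17% and 28.8% of all genes. The median log2 ratio was 0.43 in mesothelial cells and 0.69 in stroma, where Fkbp5 stood at 7.71 and 3.45 CPM.

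Fibrinolysis and coagulation genes were among the lists with a higher median, 0.79, with 8 of 13 higher by 1.3-fold or more and 2 lower. Of all genes, 17% were higher and 28.8% lower by that size. The 14 list members together summed to 2078 CPM in DOX plus AMH and 2361 CPM in DOX, so their total was lower. The activators of plasminogen, Plat and Plau, had 186 and 35.8 CPM in DOX plus AMH and 65.1 and 9.69 CPM in DOX. Their log2 ratios were 1.51 (1.22 to 1.82) and 1.88 (1.14 to 2.71). Tfpi2, an inhibitor of plasmin and of tissue factor, had 127 and 19 UMIs (log2 ratio 2.39, 1.68 to 3.16), and Procr, the endothelial protein C receptor, 120 and 41 (log2 ratio 1.19, 0.67 to 1.74). F3, tissue factor itself, had 106 and 29 UMIs but lay under the free RNA limit because epithelium held 236 and 267 CPM. Plaur, the receptor of urokinase, was at 36.6 and 39.3 CPM (log2 ratio -0.10, -0.57 to 0.37).

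**Figure D4:**
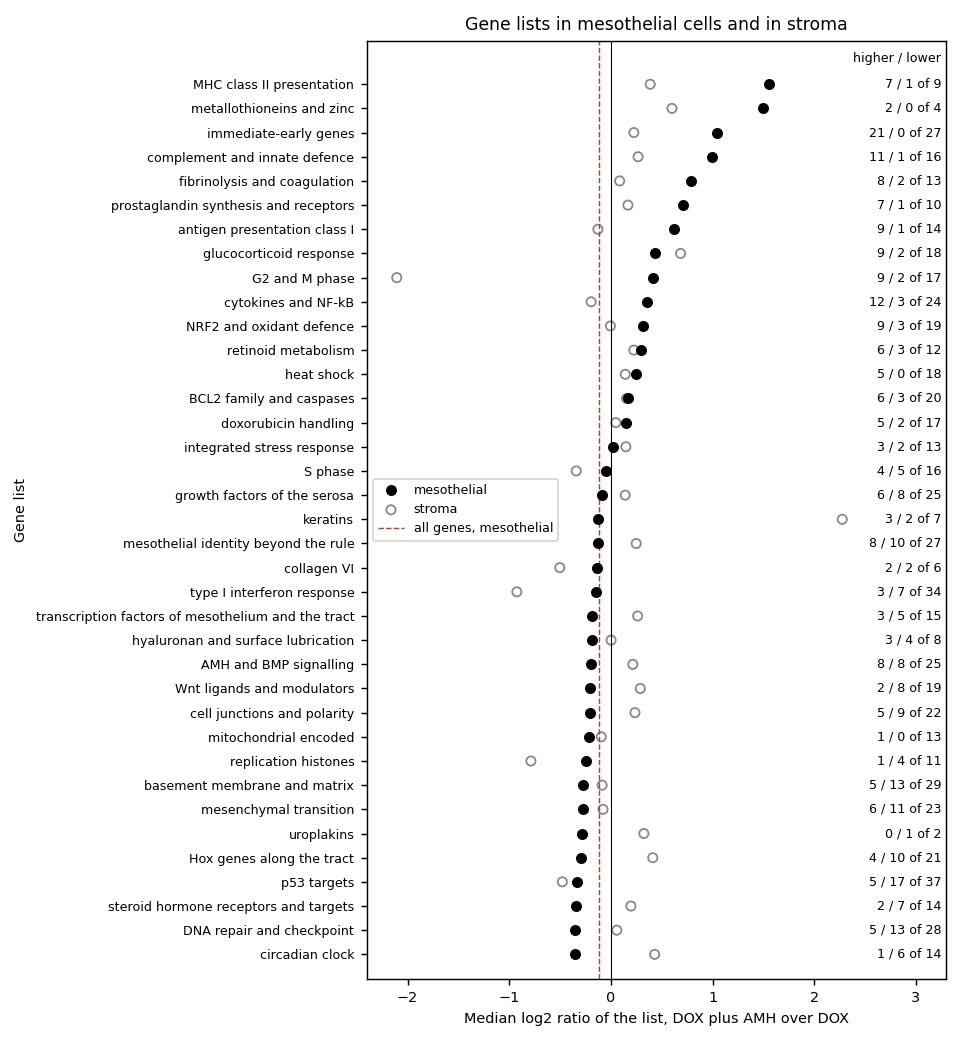
Median log2 ratio of each gene list, DOX plus AMH over DOX, in mesothelial cells (filled) and stroma (open), with the dashed line at the median of all genes in mesothelial cells, -0.12. Numbers at the right count members at least 1.3-fold higher and lower of those measured in mesothelial cells, 11 and 1 of 16 for complement and 21 and 0 of 27 for immediate-early genes.

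Immediate-early genes, which dissociation also switches on, were higher as a list. Of 27, 21 were at least 1.3-fold higher and 0 lower, beside 17% and 28.8% of all genes. The median was 1.04, against 0.23 in stroma. Fos, Jun and Egr1 were at 949, 799 and 675 CPM in DOX plus AMH and 425, 389.8 and 318 CPM in DOX. The orphan receptors Nr4a1, Nr4a2 and Nr4a3 had log2 ratios of 1.84 (1.44 to 2.27), 3.07 (2.03 to 4.33) and 3.37 (1.93 to 5.30), with Nr4a2 under the free RNA limit. The comparison was repeated without the 25% of cells with the highest immediate-early share in each library, an alternative chosen after seeing the data. Fos then had a log2 ratio of 1.71, and the list median was 0.98. The cut was set within each library, so a difference shared by all cells of a library would remain after it. The part of dissociation was not tested. Without those cells C3, Cd74, Slpi, Col6a5 and Serpina3n had log2 ratios of 2.03, 3.65, 2.26, 6.79 and 6.13. Cxcl2 then had 0 UMIs in DOX, and Il6, which had 57 and 23 UMIs in all cells (log2 ratio 0.95, 0.23 to 1.72), had a log2 ratio of 0.11.

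Oxidant defence was higher at several points, with 9 of 19 NRF2 and oxidant genes higher by 1.3-fold or more, 3 lower and a median of 0.32. The shares over all genes were 17% and 28.8%. Fth1, the ferritin heavy chain, stood at 15196 CPM in DOX plus AMH and 6783 CPM in DOX (log2 ratio 1.16, 1.13 to 1.19), whereas stroma had 3205 and 3411 CPM. Gpx3, a secreted glutathione peroxidase, had 166 and 34.5 CPM (log2 ratio 2.27, 1.88 to 2.67), and Sod2, the mitochondrial superoxide dismutase, 279 and 122 CPM (log2 ratio 1.2, 0.98 to 1.42). Xdh, a xanthine oxidoreductase that can also reduce doxorubicin, had 352 and 146 CPM (log2 ratio 1.27, 1.07 to 1.47).

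Retinoid genes differed among themselves. Aldh1a1, which makes retinoic acid, had 101 CPM in DOX plus AMH and 32.3 CPM in DOX (log2 ratio 1.65, 1.24 to 2.08), while Aldh1a2, the form known from developing mesothelium, had 153 and 164 CPM (log2 ratio -0.10, -0.33 to 0.12). Rarb, a receptor that retinoic acid induces, had 63 and 17 UMIs (log2 ratio 1.53, 0.74 to 2.40). Rbp4, the secreted carrier, was lower at 37.9 and 138 CPM (log2 ratio -1.87, -2.23 to -1.52), and so was Rarres2, the chemerin gene, at 1124 and 2242 CPM (log2 ratio -1.0, -1.07 to -0.93). Over the list 6 of 12 were at least 1.3-fold higher and 3 lower, beside 17% and 28.8% of all genes.

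The 12 genes lowest in DOX plus AMH were Apod, Xpnpep2, P2rx7, Cbfa2t3, Nkain2, Col4a1, Cadm2, Lum, Col6a3, A230057D06Rik, Ltbp1 and Limch1. A DOX plus AMH cell held UMIs of a median of 2 of these 12 genes, and a DOX cell of 6. That direction again follows from how the genes were picked. Apod, a lipid-binding lipocalin, had 0 and 100 UMIs, at least 42.6-fold lower against the floor, but 78 of the 100 were in 1 cell. Xpnpep2, a membrane aminopeptidase, was more evenly spread, with 21 UMIs in 13 cells of DOX plus AMH and 126 UMIs in 39 cells of DOX (log2 ratio -2.94, -3.68 to -2.27). Nkain2, which interacts with the sodium pump, had 42.5 and 221 CPM (log2 ratio -2.38, -2.71 to -2.06), unlike its relative Nkain4, at 449 and 310.1 CPM (log2 ratio 0.53, 0.39 to 0.68). P2rx7, an ATP-gated channel, had 24 and 110 UMIs (log2 ratio -2.55, -3.25 to -1.90), and Ltbp1, which holds latent TGF-beta in the matrix, 66 and 235 (log2 ratio -2.19, -2.60 to -1.79). Lum, the stromal proteoglycan lumican, had 37.0 and 177 CPM (log2 ratio -2.25, -2.61 to -1.91), and stroma had 689 and 786 CPM.

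Basement membrane and matrix genes were lower more often than higher, 13 of 29 against 5, with a median of -0.27 beside -0.12 for all genes. Of all genes, 28.8% were lower and 17% higher by 1.3-fold or more. Col4a1 and Col4a2, the network-forming collagen IV chains transcribed from a shared promoter, had 57.3 and 38.7 CPM in DOX plus AMH and 280.0 and 118 CPM in DOX, with log2 ratios of -2.29 (-2.57 to -2.01) and -1.61 (-1.97 to -1.25). Col4a2 was under the free RNA limit. Col4a1 was detected in 40 of 108 cells and 62 of 82 cells. Lama5, the laminin chain of mature basement membranes, had 60 and 159 UMIs (log2 ratio -1.76, -2.21 to -1.32), and Col18a1, the precursor of endostatin, 128 and 256 CPM (log2 ratio -0.99, -1.21 to -0.78). Fbln1, a matrix glycoprotein, had the highest ratio of the list, at 582 and 212 CPM (log2 ratio 1.46, 1.29 to 1.62). Col4a1 was lower in stroma as well (log2 ratio -0.67, -0.71 to -0.63).

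Growth factors that mesothelium can supply to neighbouring tissue differed in both directions. Of the 25 serosal growth factors 6 were at least 1.3-fold higher and 8 lower, beside 17% and 28.8% of all genes, with a median of -0.09, beside -0.12. Igf1, a main mediator of uterine growth, had 340.1 (317 to 364) CPM in DOX plus AMH and 988 (943 to 1034) CPM in DOX, a log2 ratio of -1.54 (-1.66 to -1.42). The median cell had 236 and 726 CPM, and Igf1 was detected in 98 of 108 and 81 of 82 cells. Stroma had Igf1 at 214 and 181 CPM, so mesothelial cells of both libraries were above stroma, and those of DOX by more. Rspo1, which amplifies Wnt signals and is known from coelomic epithelium, had 152 and 295 CPM (log2 ratio -0.95, -1.15 to -0.76), and Wnt5a 58.1 and 143 CPM (log2 ratio -1.30, -1.60 to -0.99). Fgf9, a fibroblast growth factor known from mesothelium, had 98.1 and 187 CPM (log2 ratio -0.93, -1.18 to -0.69). Wnt4 was at 155 and 108 CPM (log2 ratio 0.52, 0.27 to 0.77), and Hbegf, an EGF family ligand, was higher with 144 and 25 UMIs (log2 ratio 2.17, 1.55 to 2.85). Of the 19 Wnt genes 2 were at least 1.3-fold higher and 8 lower, beside the same shares of all genes.

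Hox genes, which record position along the body axis, had 4 of 21 members past 1.3-fold upwards and 10 downwards. The shares over all genes were 17% and 28.8%. Hoxa10 and Hoxa11, which pattern the uterus, were at 34.1 and 7.58 CPM in DOX plus AMH and 80.2 and 17.2 CPM in DOX. Their log2 ratios were -1.23 (-1.64 to -0.83) and -1.19 (-2.11 to -0.31), but with 2 markers sufficing for a member -0.59 and -0.27. Both were several-fold lower than in stroma, which had 243 and 86.7 CPM in DOX plus AMH and 227 and 77.1 CPM in DOX. Hoxc9 and Hoxc10 were instead above stroma, at 20.2 and 31.6 CPM in DOX plus AMH and 15.6 and 23.7 CPM in DOX. Stroma had 2.97 and 3.88 CPM in DOX plus AMH and 1.53 and 3.07 CPM in DOX. Osr1, a transcription factor of intermediate mesoderm, was higher with 177 and 35 UMIs (log2 ratio 1.98, 1.45 to 2.55, or 0.96 with 2 markers sufficing), and Tcf21, of visceral mesenchyme, lower with 61 and 129 (log2 ratio -1.44, -1.90 to -0.99).

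The identity genes beyond the rule were mixed, 8 of 27 at least 1.3-fold higher and 10 lower, beside 17% and 28.8% of all genes. The median log2 ratio was -0.13, beside -0.12 for all genes. Krt8, the partner of Krt18, had 113 and 228 CPM (log2 ratio -1.01, -1.24 to -0.79) and Krt18 186 and 204 CPM (log2 ratio -0.13, -0.33 to 0.07). Among junction genes, Cldn10, a paracellular channel, had 341 CPM in DOX plus AMH and 149.7 CPM in DOX (log2 ratio 1.19, 0.99 to 1.39), and Cldn15, its relative, 127 and 176 CPM (log2 ratio -0.47, -0.70 to -0.24). Cdh3, P-cadherin, was lower at 61.9 and 147 CPM (log2 ratio -1.25, -1.55 to -0.95). Among the most enriched genes, Tmem255a (log2 ratio 1.05, 0.86 to 1.26) and Gm12840 (log2 ratio 1.92, 1.73 to 2.10) were higher and Lvrn was lower (log2 ratio -1.21, -1.46 to -0.96).

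Mesenchymal transition genes had 6 of 23 at least 1.3-fold higher and 11 lower, beside 17% and 28.8% of all genes. The median log2 ratio was -0.28, beside -0.12 for all genes. Tagln and Acta2, contractile proteins, had log2 ratios of -1.64 (-1.84 to -1.44) and -1.14 (-1.32 to -0.96), but 5 cells held 60.4% and 69.0% of their UMIs in DOX plus AMH and 59.7% and 73.4% in DOX. The 7 smooth muscle markers summed to 477 and 1075 CPM in mesothelial cells, with up to 11096 and 6200.4 CPM in a cell, and both genes were far under the free RNA limit. With doublets called by Scrublet removed, Tagln and Acta2 had log2 ratios of -2.56 and -2.34, and with every cell weighted the same -0.39 and -0.35. Vim, vimentin, was in nearly all cells, at 946 and 1599 CPM (log2 ratio -0.76, -0.84 to -0.68), and in stroma the log2 ratio was -0.75 (-0.77 to -0.73). The targets of TGF-beta and YAP signalling Thbs1 and Ccn2 had 132 and 23 UMIs and 32 and 2 UMIs, with log2 ratios of 2.17 (1.52 to 2.87) and 3.65 (1.67 to 6.75). Of the Thbs1 UMIs in DOX plus AMH, 59.1% were in 1 cell, and without that cell the log2 ratio was 0.94 (0.21 to 1.71). In cells of 5000 to 40000 UMIs it was 0.55. Ccn2 was under the free RNA limit, and 5 cells held 78.1% of its UMIs in DOX plus AMH.

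The p53 targets, which DNA damage induces, included a gene several-fold above stroma in mesothelial cells of both libraries. Cdkn1a, the cell cycle inhibitor p21 and a main p53 target, was at 877 (840.0 to 916) CPM in DOX plus AMH and 854 (812 to 897) CPM in DOX, against 75.1 and 137 CPM in stroma. Its log2 ratio was 0.04 (-0.06 to 0.13) in mesothelial cells and -0.87 (-0.93 to -0.81) in stroma. In cells thinned to 2000 UMIs, Cdkn1a had a UMI in 58.3% and 69.5% of mesothelial cells and 7.19% and 13.9% of stromal cells. Unthinned, the mesothelial shares were 87.0% and 89.0%, and immune cells, which also make it, had 64.2% and 76.8%. Mdm2, which degrades p53, had 297 and 241 CPM (log2 ratio 0.30, 0.13 to 0.48). Bax, Ccng1 and Phlda3, other p53 targets, were lower, with log2 ratios of -0.65 (-0.83 to -0.47), -0.39 (-0.53 to -0.24) and -0.55 (-0.73 to -0.38). Pmaip1, Plk2, Plk3 and Gdf15 were higher, with log2 ratios of 0.89 (0.36 to 1.43), 0.85 (0.55 to 1.17), 1.00 (0.14 to 1.94) and 0.75 (0.14 to 1.39). With every cell weighted the same, that of Plk3 was 0.35. Over the settings tried, the log2 ratio of Gdf15 ran from 0.22 to 1.08 and that of Mdm2 from -0.03 to 0.57. That of the lower gene Ccng1 ran from -0.62 to -0.07. In DOX, 5 cells held 78.8% of the Gdf15 UMIs and 63.6% of the Pmaip1 UMIs. In all, 17 of 37 p53 targets were at least 1.3-fold lower and 5 higher, beside 28.8% and 17% of all genes. The median log2 ratio was -0.33 in mesothelial cells, beside -0.12 for all genes, and -0.48 in stroma.

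DNA repair and checkpoint genes had 13 of 28 members at least 1.3-fold lower and 5 higher, beside 28.8% and 17% of all genes. Their median was -0.35, beside -0.12 for all genes in mesothelial cells and 0.06 for the list in stroma. They were thinly covered: Nbn, a sensor of double-strand breaks, had 23 and 34 UMIs (log2 ratio -0.92, -1.75 to -0.11) and Chek2, a checkpoint kinase, 21 and 29 (log2 ratio -0.82, -1.70 to 0.04). Among targets of doxorubicin, Top2b, the topoisomerase II of resting cells, had 65.7 and 104 CPM (log2 ratio -0.67, -0.98 to -0.36) and Top2a 53 and 71.1 CPM (log2 ratio -0.42, -0.79 to -0.06). Top2a had a UMI in only 20 of 108 cells in DOX plus AMH and 14 of 82 in DOX. The top 5 cells held 77.8% and 78.0% of its UMIs, and over the settings tried its log2 ratio ran from -1.15 to -0.01. Of apoptosis genes, Bid, a BH3-only activator, had 24 and 5 UMIs (log2 ratio 1.91, 0.49 to 3.65), and Bcl2, which blocks apoptosis, 59 and 91 (log2 ratio -0.98, -1.48 to -0.49). There 6 of 20 were at least 1.3-fold higher and 3 lower, beside 17% and 28.8% of all genes.

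Interferon-stimulated genes had a list median nearer to 0 in mesothelial cells than in stroma. Isg15, a ubiquitin-like protein, had 641 CPM in DOX plus AMH and 618 CPM in DOX (log2 ratio 0.05, -0.06 to 0.17), while stroma had 21.6 and 103 CPM (log2 ratio -2.26, -2.36 to -2.15). Ifit3 and Ifit1, which bind viral RNA, had log2 ratios of -0.47 (-0.63 to -0.31) and -0.20 (-0.35 to -0.05) in mesothelial cells and -2.33 (-2.46 to -2.20) and -2.31 (-2.48 to -2.14) in stroma. The counting intervals of the 2 classes lay apart for these 3 genes, but a difference between classes cannot be tested with 1 library per group. Bst2 and Ifi27l2a were lower, at 676 and 1279 CPM in DOX plus AMH and 1239 and 2417 CPM in DOX. Their log2 ratios were -0.87 (-0.97 to -0.78) and -0.92 (-0.99 to -0.85). Over 34 genes, 3 were at least 1.3-fold higher and 7 lower, beside 17% and 28.8% of all genes, and the median was -0.15 beside -0.93 in stroma.

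AMH signals through Amhr2 with the type I receptors Acvr1 and Bmpr1a and raises the Id genes by way of receptor SMAD proteins in other tissues. Amhr2 had 12 UMIs in 8 cells of DOX plus AMH and 5 UMIs in 5 cells of DOX, or 5.05 (2.61 to 8.82) and 2.69 (0.874 to 6.28) CPM. Stroma had 1.18 and 0.993 CPM. Unthinned, 7.41% and 6.10% of mesothelial cells held a UMI, against 0.629% and 0.688% of immune cells, whose median depth was lower, 10429 and 9492 UMIs against 16989.5 and 17395.5 in mesothelial cells. Thinned to 2000 UMIs, a depth too shallow for a gene of this level, 0 of 108 cells in DOX plus AMH and 1 of 82 cells in DOX held one. The count of 0 allows up to 2.78% of cells with a UMI at that depth (3 counts), and sets no limit on the cells that express Amhr2. Acvr1 and Bmpr1a were better covered, at 40.0 and 154 CPM in DOX plus AMH and 50.6 and 216 CPM in DOX, with log2 ratios of -0.34 (-0.77 to 0.09) and -0.49 (-0.70 to -0.29). All of Id1, Id2 and Id3 were higher in DOX plus AMH, at 109, 77.0 and 282 CPM, against 54.4, 27.5 and 122 CPM in DOX. Their log2 ratios were 1.00 (0.66 to 1.34), 1.49 (1.03 to 1.97) and 1.21 (0.99 to 1.43). In stroma these were 0.22 (0.09 to 0.35), 0.81 (0.70 to 0.92) and 0.06 (0.01 to 0.10). Smad6, the feedback inhibitor, had 55 and 29 UMIs (log2 ratio 0.57, -0.11 to 1.27). The whole list had 8 of 25 genes at least 1.3-fold higher and 8 lower, beside 17% and 28.8% of all genes. The list median log2 ratio was -0.20, beside -0.12 for all genes.

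**Figure D5:**
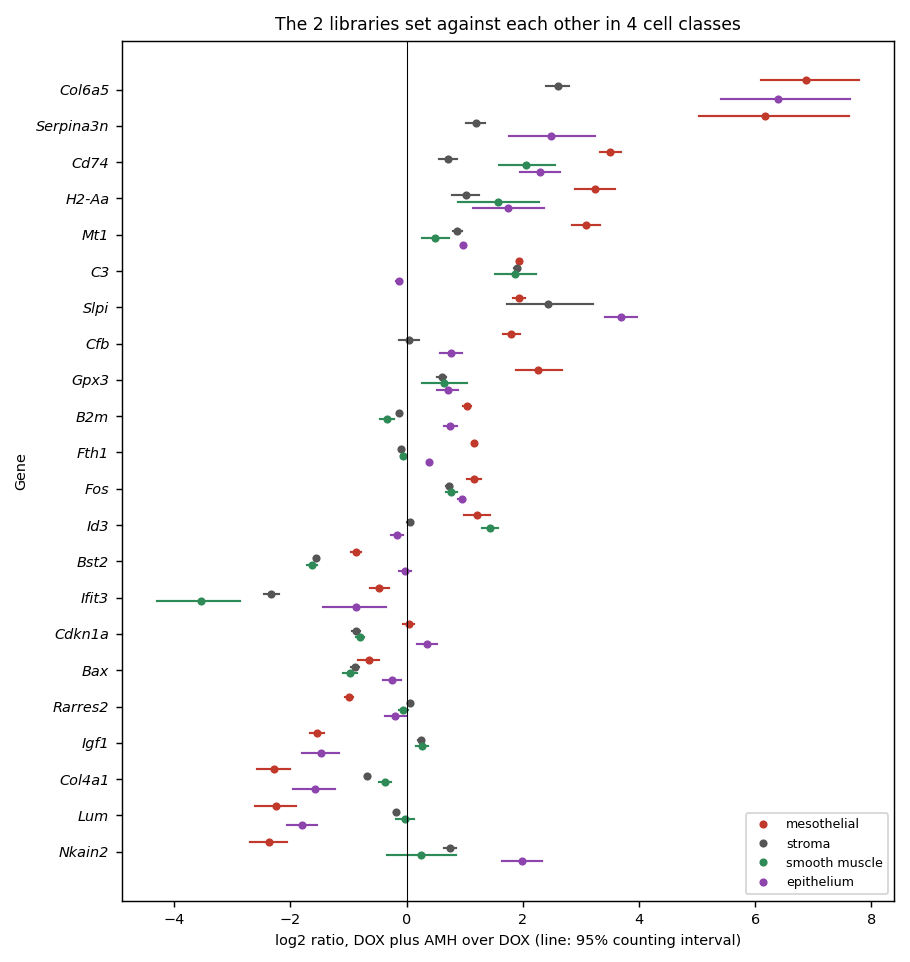
Log2 ratios, DOX plus AMH over DOX, of 22 genes in mesothelial cells, stroma, smooth muscle and epithelium, with lines for 95% counting intervals; ratios with under 20 UMIs or with a library at 0 are not drawn. Igf1 and Rarres2 are lower in mesothelial cells at -1.54 and -1.0 and not in stroma, and Ifit3 is far lower in stroma (-2.33) than in mesothelial cells (-0.47).

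Few mesothelial cells held UMIs of several G2 and M phase genes. Those with UMIs of at least 5 of 20 G2 and M phase genes numbered 9 of 108 in DOX plus AMH and 10 of 82 in DOX, and they held 82.2% and 88.4% of the list's UMIs. Mki67, a proliferation marker, had a UMI in 13 and 12 cells, 12% and 14.6%, and after thinning to 2000 UMIs in 1.85% and 6.10%. Stromal cells gave 1.90% and 7.06% unthinned, and 0.518% and 2.56% thinned. The list median was 0.41 in mesothelial cells and -2.11 in stroma, but with every mesothelial cell weighted the same it was -0.14.

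Steroid receptor transcripts were present. Esr1, the oestrogen receptor alpha, had 415 CPM in DOX plus AMH and 654 CPM in DOX (log2 ratio -0.66, -0.78 to -0.53). Pgr, the progesterone receptor, was at 44.2 and 62.5 CPM, under the free RNA limit beside 562 and 541 CPM in stroma. Nr3c2, the mineralocorticoid receptor, was higher with 234 and 68 UMIs (log2 ratio 1.43, 1.03 to 1.84). Over steroid hormone receptors and targets, 2 of 14 were at least 1.3-fold higher and 7 lower, beside 17% and 28.8% of all genes. Of 14 circadian clock genes 1 was higher and 6 were lower by that size, with a median of -0.35 in mesothelial cells and 0.43 in stroma. Of 18 heat shock genes 5 were higher and 0 lower, to be read beside the same shares of all genes, as is the clock list.

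Markers of other cells were present in mesothelial cells and differed between the libraries, and their part in the ratios above was not tested. The 8 stromal markers summed to 7148 CPM in DOX plus AMH and 8178 CPM in DOX, against 8709 and 10031 CPM in stroma itself, and every mesothelial cell held a UMI of the set. Most of both mesothelial sums was Dcn, which mesothelial cells held above its level in stroma. Lum was below its level in stroma in both libraries. The sets that follow had lower sums. Of the 8 squamous markers 7 and 5 had a UMI, and they summed to 47.6 CPM in DOX plus AMH (0 to 453 CPM per cell) and 6.46 CPM in DOX (0 to 80.1). Krt5 had 28 and 0 UMIs and Dsg3 was at 0 in both, and stroma of the same libraries had a sum of 51.6 and 4.21 CPM. The 5 haemoglobin and erythroid markers summed to 126 and 9.69 CPM, with up to 14895 and 750.2 CPM in a cell. The 7 lymphocyte markers summed to 4.21 and 16.2 CPM and the 6 ovarian markers to 28.2 and 31.8 CPM, with Amh and Nr5a1 at 0 in both. Adipoq and Lep, of adipocytes, were at 0 in both. The 8 columnar epithelial markers, which include keratins that mesothelium shares, summed to 328 and 453 CPM.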

How the data were processed

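Uterine cells of 2 pools of mice were captured with a 10x Genomics 3′ kit. The authors deposited raw UMI counts per gene and barcode, made with Cell Ranger 7.0.0 on mm10 per the submitters' processing notes. Filters that the authors set on barcodes before deposit are not given in the sources used here. The members, the gene lists and the genes named were chosen with earlier results of these data known, and 5 lists were added to the 33 others after their values were seen.

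UMI counts were summed over the mesothelial cells of each library and divided by their total (CPM). Levels carry exact Poisson intervals, log2 ratios exact intervals of the binomial split and shares exact Clopper-Pearson intervals, all at 95% and for counting error alone. A gene at 0 in a library was set to a floor of 3 counts. With 1 library per group, no test was made. Genes were called by size, at 2-fold among genes of 100 UMIs in all and 20 CPM in the higher library, and at 1.3-fold within lists among genes of 20 UMIs. Members held 2375530 UMIs in DOX plus AMH and 1857376 UMIs in DOX, so that a gene of 20 UMIs has a wide interval.

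The text names the markers of the rule with other identity and uroplakin genes, the 15 genes most enriched over the comparison classes, and the 12 highest and the 12 lowest ratios past the free RNA limit. It also names up to 5 members per list with the ratios farthest from 0 and defining members of pathways. Other genes named were chosen after their values were seen, and a few genes that these rules name are not reported here, though list counts include them. Doublets were called with Scrublet in scanpy 1.11.5 at an expected rate of 0.08 and kept in the main values. TMM factors came from edgeR 4.0.16 in R 4.3.3. Python 3.11.15, numpy 2.4.6, scipy 1.17.1, pandas 2.3.3 and matplotlib 3.10.9 were used otherwise. The alternatives changed the cell filter, the markers, doublets, members with stromal or muscle UMIs, depth, scaling, the weight of cells and the minimum level, and ratios without the cell holding the most UMIs of a gene were added after seeing the data. The summing and interval code was tested on simulated data.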

Additional observations from a re-analysis of the deposited data

Results flagged for a closer look

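The signs of several ratios, DOX plus AMH over DOX, were opposite in mesothelial cells and stroma. None of these differences was tested, since each group has 1 library. The G2 and M phase list had a median log2 ratio of 0.41 in mesothelial cells and -2.11 in stroma, but -0.14 in mesothelial cells with every cell weighted the same. Cbfa2t3, a transcriptional corepressor, had a log2 ratio of -2.48 in mesothelial cells and 0.61 in stroma. Nkain2, which interacts with the sodium pump, had -2.38 and 0.75, and Cadm2, a synaptic adhesion molecule, had -2.29 and 0.52. Lama5, a laminin chain, had -1.76 and 0.44. Ccl2, the monocyte chemokine, had 1.44 in mesothelial cells and -1.66 in stroma. Acta2, smooth muscle actin, had -1.14 and 0.44, with 69.0% of its mesothelial UMIs in DOX plus AMH and 73.4% of those in DOX held by 5 cells each. It was under the free RNA limit, and its mesothelial log2 ratio was -0.35 with every cell weighted the same.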

How the results depend on the processing

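No paired analysis was possible because each group has 1 library. Mesothelial cells remained a larger share in DOX plus AMH in the 9 alternatives tried, but with 2 markers sufficing they were 2.62% of cells in DOX plus AMH and 2.26% in DOX, and the DOX share was 0.835% with members that held stromal or muscle UMIs left out. With 2 markers sufficing, 84 genes were at least 2-fold lower against 188, and the log2 ratios of Lum, Col6a6, Thbs1, F3, Osr1, Hoxa10 and Hoxa11 were under 2-fold at -0.76, 0.15, 0.77, 0.31, 0.96, -0.59 and -0.27. That setting adds cells with more Pdgfra. In cells of 5000 to 40000 UMIs, a choice made after seeing the data, 126 genes were at least 2-fold higher and 99 lower, and fewer genes reached the minimum. Without a minimum level, 598 were higher and 609 lower. With every cell weighted the same, the G2 and M phase median was -0.14. Of 117 genes reported here and past 2-fold, each kept its sign in the alternatives that gave a value, and from 93 to 117 were still past 2-fold, with the fewest where 2 markers sufficed. Counts in cells limit the precision of genes near 20 UMIs, and no interval here covers the spread between animals.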
